A study of Brassica napus with 9 samples.

Results

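The genes described here are the 148 B. napus genes whose transcripts fell most in guard cells after 60 min of abscisic acid (ABA). For each gene with at least 30 counts in every Control library, the log2 level at 60 min minus that of the Control with the same replicate number was taken in each of the 3 replicates, and the genes were ordered by the smallest of their falls. The 150 genes at the bottom of that order were taken, and BnaA05g05420D and BnaC04g04830D, copies of the receptor gene PYL6, were set apart. The remaining 148 genes are a part of the 41649 genes with enough counts in Control, of the 52881 genes tested and of the 101040 genes in the annotation. Levels are CPM, each gene's share of the counts of its library on a fixed scale, after TMM scaling, a scaling that sets the typical gene to no change between libraries. The 60 min libraries and the Control libraries chose these genes, so every value of that comparison below is a description.

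RNA-seq read counts were collected from 9 samples of guard cell protoplasts, guard cells freed of their walls, prepared from leaves of the double-haploid line DH12075. The 3 groups are Control (mock, the ethanol solvent alone), ABA for 15 min and ABA for 60 min, each with replicates 1, 2 and 3. Each replicate number is a pool of several protoplast preparations, and the study describes each as holding all 3 treatments. The labels name no transgene or mutation in any group. The study's model sets Control at time 0, and how long the mock samples were kept before freezing is not given in the sources used here. The effect of ABA and that of time in light at room temperature therefore cannot be told apart. The reads were aligned to the genome of Darmor, another line, and differences between the lines can lower the counts of some genes.

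ABA is the hormone by which plants close their stomata in dry conditions. In Arabidopsis it is bound by the PYR/PYL receptors, which in the bound state hold back PP2C phosphatases such as ABI1, HAB1 and AHG3. The phosphatases otherwise keep the kinase OST1 inactive, and active OST1 opens anion channels so that the guard cell loses water and the pore closes. The receptors PYL4, PYL5 and PYL6 are monomers, whereas PYR1, PYL1 and PYL2 form dimers until ABA binds. A loss of receptor transcripts and a gain of phosphatase transcripts are known feedback responses of plant tissue to ABA.

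Total counts ran from 88051359 to 123968001 per library, and TMM factors were 0.95 to 1.20 in Control and 0.81 to 0.94 at 60 min. Without these factors, on total counts, the median log2 fold change of all genes tested at 60 min was -0.32 in place of -0.03. In the labelled cell type, 7 listed guard cell genes (copies of ALMT12, OST1 and MPK12) were measured in every library, with a summed level of 227 to 838 CPM in Control, 243 to 1079 at 15 min and 639 to 2417 at 60 min. CAB1, a chlorophyll-binding protein gene and the single mesophyll marker listed, stood at 19.8 to 43.0 CPM in Control and 34.7 to 56.9 at 60 min, a log2 fold change of 0.47 (edgeR, adjusted p = 0.00711). The 7 guard cell genes were each called higher at 60 min, with log2 fold changes from 1.00 (MPK12 BnaC04g04740D) to 2.18 (ALMT12 BnaA03g43490D). CAB1 is also among the listed MYC2 targets below. Since all these markers changed with the treatment, their levels were not read as cell content. The part of either marker list in the results was not tested. In a bulk sample fewer cells of a type and less RNA per cell cannot be told apart.

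Among the 148 genes, 11 carry a name in the study's tables, and all 11 are ABA receptor genes. They are all 4 listed copies of PYL4, 3 of 4 listed copies of PYL5, 3 of 5 of PYL6 and 1 of 2 of PYR1. The other 2 listed PYL6 copies are the pair set apart. Their median log2 fold change at 60 min was -1.99, with a range of -3.01 to -1.32. The 137 members without a name had a median of -1.57, all 148 members a median of -1.58, and all genes tested a median of -0.03. At 60 min 8 of the 11 receptor members lay below Control without overlap between the groups, in the comparison that chose the genes, where 6.16% of all genes tested did. The study took these names from genes that responded in these same samples, so their presence is not independent evidence.

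PYL4 encodes a monomeric ABA receptor. Its copy BnaC03g21240D had 40.1, 35.9 and 64.6 CPM in Control replicates 1, 2 and 3, then 19.4, 23.0 and 22.7 CPM at 15 min and 12.6, 11.8 and 11.4 CPM at 60 min. Every 15 min library lay below every Control library and every 60 min library lay below every 15 min library, so the 3 groups did not overlap. The log2 fold change at 15 min was -1.08 ± 0.16 (SE, edgeR quasi-likelihood test, adjusted p = 0.0175), and from 15 to 60 min it was -0.86 ± 0.16 (adjusted p = 0.00402). At 60 min it was 3.84 times lower than Control. BnaA03g17720D, the PYL4 copy with the most counts in Control, had 74.1, 67.2 and 123 CPM in Control, 47.5, 44.3 and 52.8 CPM at 15 min and 33.7, 26.7 and 36.3 CPM at 60 min. Here too no library of one group reached into the next. It fell by 0.83 ± 0.12 on the log2 scale at 15 min (adjusted p = 0.0157) and by a further 0.59 ± 0.12 from 15 to 60 min (adjusted p = 0.00594).

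The other PYL4 copies gave the same order of groups with a wider spread at 15 min. BnaC04g07010D had 67.6, 44.1 and 109 CPM in Control, 39.4, 30.2 and 39.1 CPM at 15 min and 21.5, 15.3 and 11.1 CPM at 60 min. Its groups did not overlap, yet its log2 fold change of -0.99 ± 0.26 at 15 min did not pass the threshold (adjusted p = 0.306). BnaAnng13200D had 17.2, 9.68 and 24.4 CPM in Control, 10.5, 6.61 and 8.78 CPM at 15 min and 4.38, 3.32 and 2.04 CPM at 60 min. Its 15 min libraries overlapped Control only through replicate 1, which stood above Control replicate 2. From 15 to 60 min both copies fell, by 1.16 ± 0.27 (adjusted p = 0.0107) and 1.39 ± 0.29 (adjusted p = 0.00645) on the log2 scale.

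**Figure D1:**
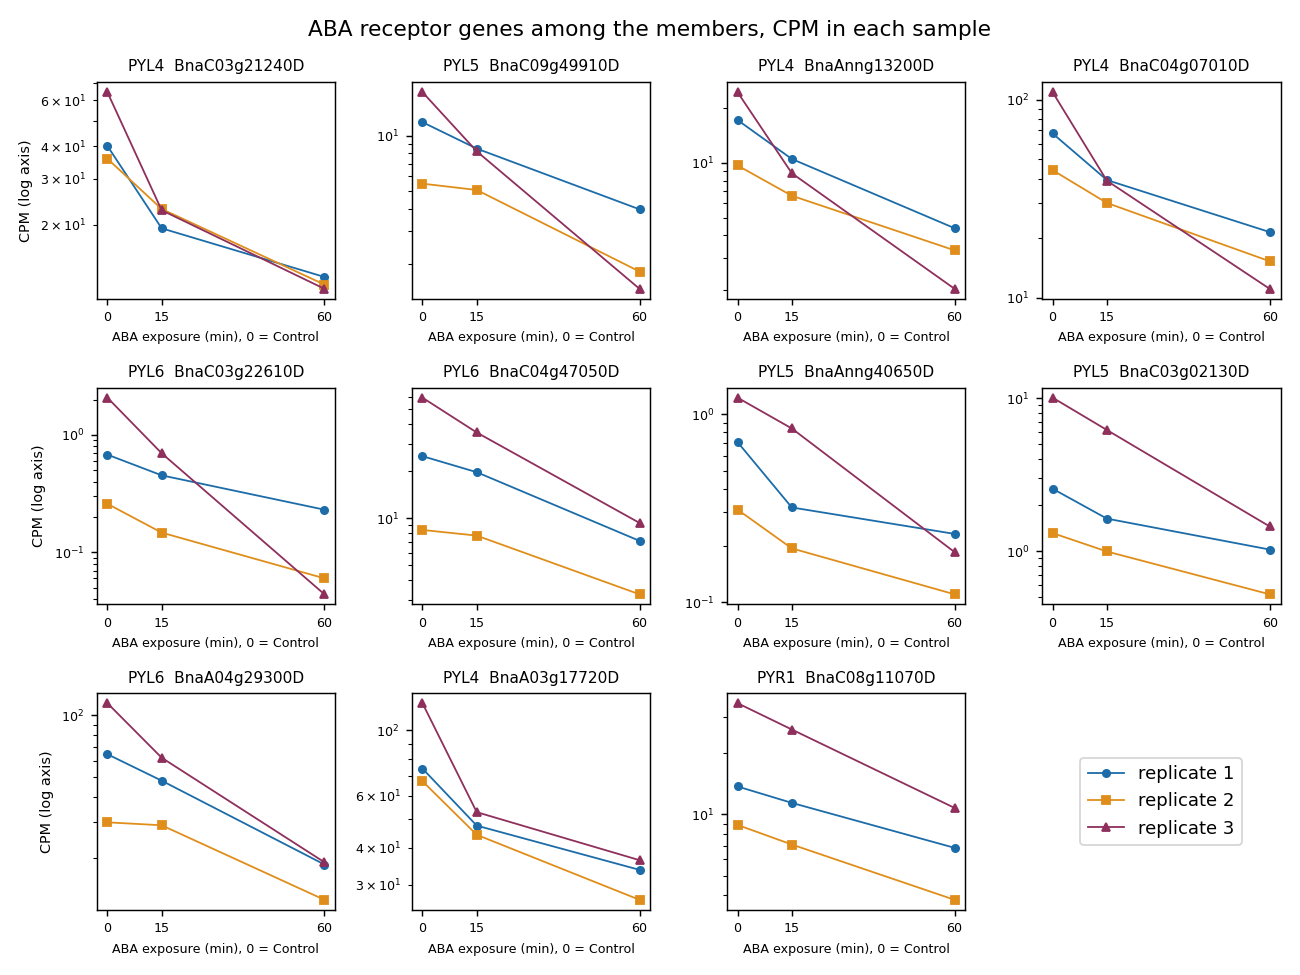
CPM (log axis) of the 11 ABA receptor genes against minutes of ABA exposure, with Control at 0, 1 line per replicate. All 11 genes are highest in Control replicate 3 and lower at 60 min than in Control in every replicate, and BnaC03g21240D falls from 35.9 to 64.6 CPM in Control to 11.4 to 12.6 CPM at 60 min.

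PYL5 and PYL6 encode monomeric receptors of the same class. The PYL5 copy BnaC09g49910D had 11.9, 5.47 and 17.3 CPM in Control, 8.5, 5.05 and 8.22 CPM at 15 min and 3.96, 1.81 and 1.46 CPM at 60 min. All 60 min libraries lay below all 15 min libraries, whereas the 15 min and Control libraries overlapped. BnaC03g02130D, also PYL5, had 2.56, 1.31 and 10.1 CPM in Control, 1.63, 0.994 and 6.22 CPM at 15 min and 1.02, 0.521 and 1.45 CPM at 60 min. Its replicate 3 was several-fold above the other Controls, so its groups overlapped although each replicate fell. The PYL5 copy with the fewest counts, BnaAnng40650D, had 0.710, 0.311 and 1.22 CPM in Control and 0.231, 0.110 and 0.185 CPM at 60 min, without overlap of these groups. From 15 to 60 min the 3 copies fell by 1.61 ± 0.31 (adjusted p = 0.00463), 1.32 ± 0.27 (adjusted p = 0.00677) and 1.25 ± 0.34 (adjusted p = 0.0258) on the log2 scale.

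The PYL6 copy BnaA04g29300D had 64.6, 30.03 and 115 CPM in Control, 48.0, 29.1 and 62.1 CPM at 15 min and 18.7, 12.6 and 19.2 CPM at 60 min. Replicate 2 was nearly as high at 15 min as in Control, and all 60 min libraries lay below both other groups. BnaC04g47050D had 25.03, 8.41 and 59.4 CPM in Control, 19.7, 7.73 and 35.5 CPM at 15 min and 7.15, 3.25 and 9.33 CPM at 60 min. Its 60 min library of replicate 3 stood above Control replicate 2, so the groups overlapped, while each replicate fell. BnaC03g22610D gave the lowest fitted value of the receptor members at 60 min, -3.01 ± 0.57, on few reads, with 66, 30 and 285 counts in Control and 23, 6 and 5 counts at 60 min. From 15 to 60 min the PYL6 copies fell by 1.41 ± 0.19 (adjusted p = 0.000596), 1.56 ± 0.18 (adjusted p = 0.000317) and 1.89 ± 0.59 (adjusted p = 0.0431). The 2 PYL6 copies set apart by the rule had log2 fold changes at 60 min of -5.72 (BnaA05g05420D) and -3.44 (BnaC04g04830D).

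The single dimeric receptor among the members is the PYR1 copy BnaC08g11070D, with 13.7, 8.87 and 35.3 CPM in Control, 11.4, 7.11 and 26.2 CPM at 15 min and 6.84, 3.80 and 10.8 CPM at 60 min. The groups overlapped because replicate 3 was highest throughout, and the gene was lower at each later time in each replicate. Its log2 fold change was -0.35 ± 0.11 at 15 min (adjusted p = 0.582) and -0.98 ± 0.12 from 15 to 60 min (adjusted p = 0.000333). Of the 14 listed copies of monomeric receptors 10 are members and 2 more met the limit but were set apart. Of the 4 listed copies of dimeric ones 1 is a member. Copies that did not change enough to be listed are not counted, and the difference between the classes was not tested.

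Beyond the members and the pair set apart, 5 listed receptor genes did not reach the rule's limit, and 4 of them were lower at 60 min. These were PYL5 BnaA10g24990D at -1.45 (adjusted p = 0.00063), PYR1 BnaAnng35310D at -1.35 (adjusted p = 0.000661), PYL1 BnaA06g40360D at -1.16 (adjusted p = 0.00126) and PYL2 BnaA09g40690D at -1.08 (adjusted p = 0.00429), all as log2 fold changes. The PYL9 copy BnaA10g00540D, a monomeric receptor, was higher by 1.18 (adjusted p = 7e-06). In all, 17 of 18 listed receptor genes fell at 60 min and 1 rose, where 10.6% of all genes tested were called lower and 15.2% higher. The study listed these genes for large and significant changes in these samples, so a call was in large part fixed by the listing. Receptor copies that did not change in this way are not among the 18. With total count scaling in place of TMM the split over all genes turned to 23222 lower and 4148 higher, against 5588 and 8028, and the same number of receptor genes, 17, stayed lower. Without the replicate block 4 of the 18 passed the threshold as lower.

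The listed genes of PP2C phosphatases, the partners that the receptors inhibit, moved the other way. All 19 listed PP2C genes were higher at 60 min, with a median log2 fold change of 2.12 and a range of 1.03 to 6.46. The highest value was that of AIP1 BnaC05g05180D, with 32, 61 and 17 counts in Control replicates 1, 2 and 3. At 15 min 5 of the 19 were called higher, where 0.395% of all genes tested were, and none is among the members. Of 2 other ABA signalling genes listed as falling, RBOHD BnaAnng07990D, an NADPH oxidase that makes reactive oxygen species, was at -1.05, and CIPK23 BnaA09g26270D, a kinase that acts on ion channels, was at -1.0 on the log2 scale. Both were called lower at 60 min and neither reached the limit of the rule. Of 24 listed targets of the transcription factors HY5 and MYC2, 23 were higher at 60 min, with a median of 1.26, and BnaC05g37040D was lower at -0.58. The study lists CAB1, higher by 0.47, as repressed by MYC2, and gives most HY5 targets an unknown type of interaction. At 15 min edgeR in the main fit and DESeq2 called none of these 24, and 3 of them were higher at an unadjusted p under 0.05 in each. With no filter on low counts edgeR called 2 of them higher at 15 min, and with only the groups compared it also called 2. These lists come from the study's tables, which hold only genes that changed in these samples. That the genes were called at 60 min was thus in large part fixed by the listing. Copies that did not change are missing from the counts.

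**Figure D2:**
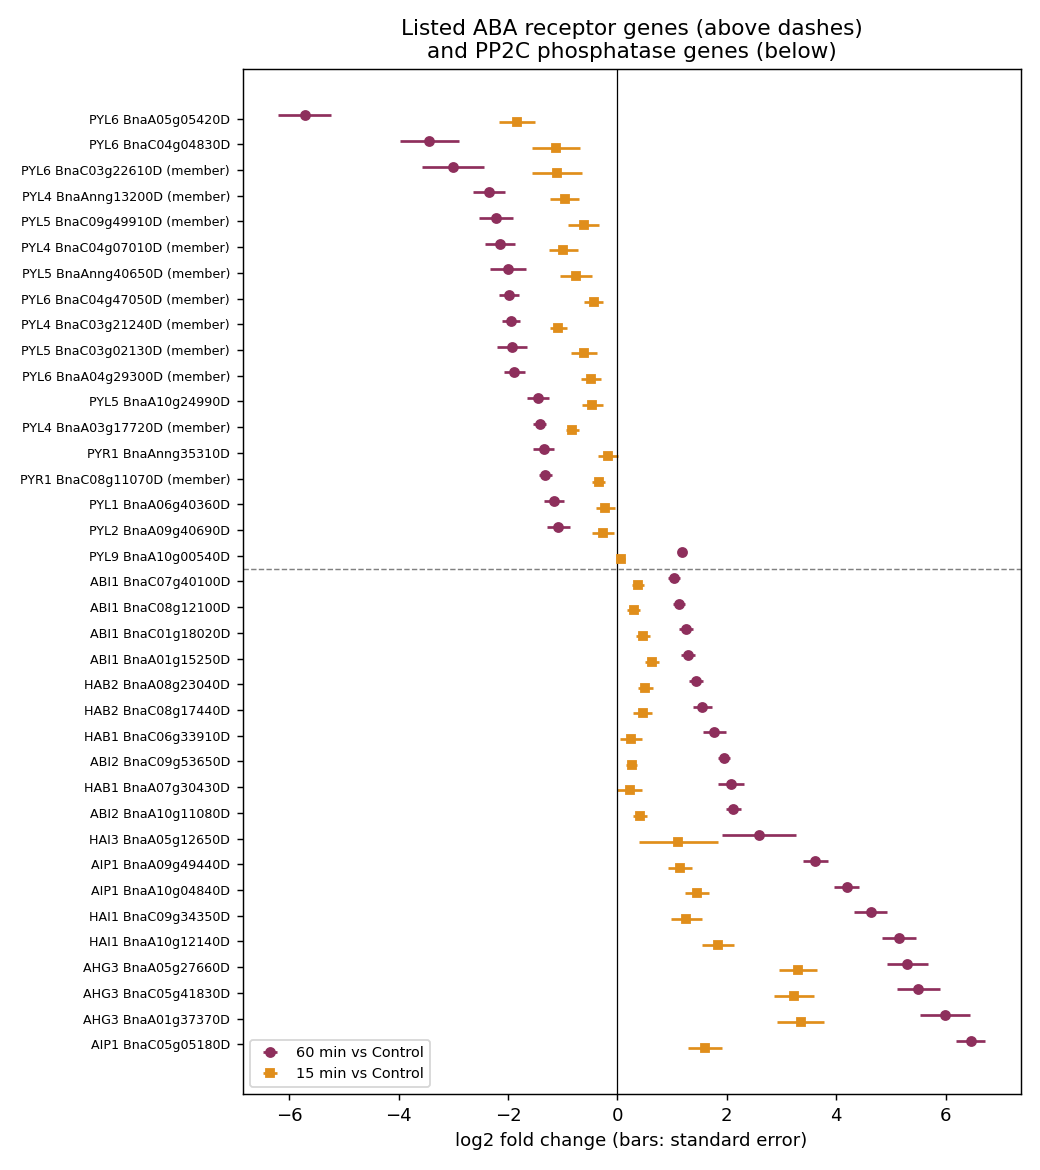
Log2 fold change (horizontal axis, bars are standard errors) of the 18 listed ABA receptor genes above the dashed line and 19 listed PP2C genes below it, at 60 min (circles) and 15 min (squares) against Control. At 60 min 17 receptor genes lie left of 0 and PYL9 at 1.18, whereas the PP2C genes lie between 1.03 and 6.46.

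How much of the fall was present at 15 min was asked next. These 15 min libraries took no part in the choice of the genes, but the Control libraries they are compared with did. The members' log2 fold changes at 15 min ran from -1.40 to 0.10 with a median of -0.38, against 0.00 for all genes tested. By edgeR's quasi-likelihood test 9 of 148 members (6.08%) were called lower at 15 min, where 0.0359% of all genes tested were, 19 genes in all. No member was called higher by edgeR, where 0.395% of all genes tested were, or by DESeq2, and none was higher at an unadjusted p under 0.05 with either. At an unadjusted p under 0.05, 84 members (56.8%) were lower, against 2.03% of all genes tested. The count rests on replicate 1 and on the block for replicate number, since it was 0 without replicate 1 and 0 without the block. In both settings 0 of all genes tested were called lower, and 64 and 15 members were lower at an unadjusted p under 0.05. DESeq2 called 18 members, the same 9 among them, against 0.12% of all genes tested.

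The 9 genes were the PYL4 copies BnaC03g21240D and BnaA03g17720D and 7 genes without a name. Of these, BnaA06g37320D was lowest at 15 min, with 1.11, 1.32 and 2.32 CPM in Control, 0.616, 0.580 and 0.543 CPM at 15 min and 0.181, 0.321 and 0.290 CPM at 60 min. Its groups did not overlap at any step, and its log2 fold change at 15 min was -1.40 ± 0.25 (adjusted p = 0.0486). BnaA01g09020D had 0.628, 0.371 and 2.36 CPM in Control, 0.326, 0.184 and 0.832 CPM at 15 min and 0.130, 0.0601 and 0.299 CPM at 60 min. Replicate 3 was highest in every group of this gene, and its fall at 15 min was -1.21 ± 0.21 (adjusted p = 0.0425). The other 5 were BnaA01g01150D at -1.11 (adjusted p = 0.0267), BnaC09g12200D at -1.11 (adjusted p = 0.0243), BnaA01g01140D at -1.03 (adjusted p = 0.0309), BnaA02g01220D at -0.89 (adjusted p = 0.0298) and BnaA07g12140D at -0.53 (adjusted p = 0.0292).

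Within replicates, 99 members (66.9%) were lower at 15 min than the Control of the same number in all 3 replicates, against 14.9% of all genes tested. Another 34 were lower in 2 replicates and 15 in 1, and no member was higher in all 3. All 11 receptor members were lower in all 3. The receptor members had a median log2 fold change at 15 min of -0.76, with a range of -1.11 to -0.35, and the members without a name a median of -0.35. The 15 min libraries lay below Control without overlap for 10 members (6.76%), against 0.906% of all genes tested, and 3 of the 10 are PYL4 copies.

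**Figure D3:**
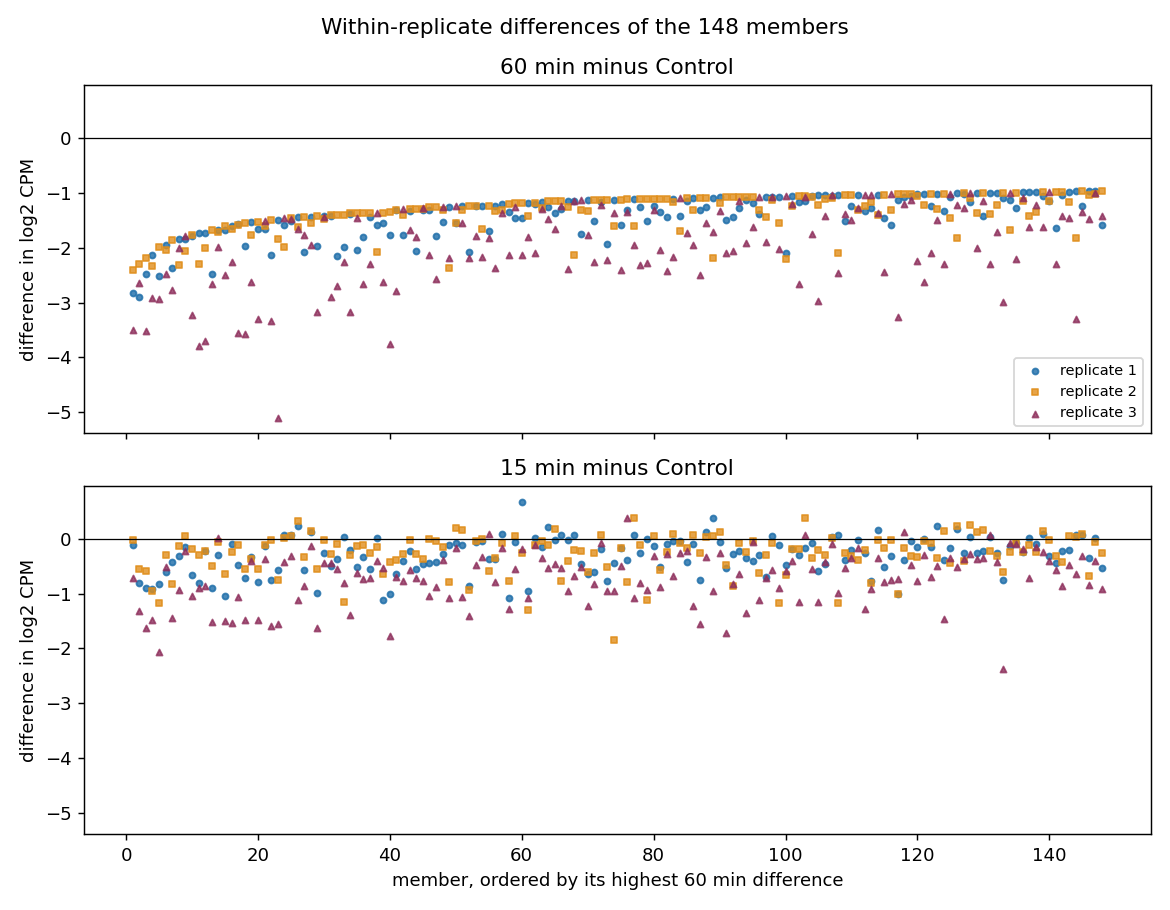
Differences in log2 CPM within each replicate for the 148 members, ordered by the smallest fall at 60 min, with 60 min minus Control above and 15 min minus Control below. At 60 min all points lie at or below -0.97 by the choice of the genes, and at 15 min they scatter around medians of -0.26, -0.23 and -0.66 in replicates 1, 2 and 3.

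Expressed as a share of the log2 fall at 60 min, a median of 25.6% was present at 15 min, with a range of -7.94% to 75.4%. For 15 members at least 50% of the fall was present, and for 28 members less than 10% was. The receptor members had a median share of 37.0% and the members without a name 22.7%. The highest share, 75.4%, was that of BnaC06g37490D, which had 113, 60.8 and 245 CPM in Control, 67.5, 40.1 and 47.3 CPM at 15 min and 52.9, 30.4 and 31.0 CPM at 60 min. It was called neither at 15 min (log2 fold change -1.32 ± 0.34, adjusted p = 0.266) nor from 15 to 60 min (-0.43 ± 0.33, adjusted p = 0.385), with replicate 3 falling far more than the others. BnaC02g37820D, with a share of 4.45%, had 24.5, 16.1 and 1.26 CPM in Control, 22.1, 16.8 and 1.07 CPM at 15 min and 6.86, 3.88 and 0.352 CPM at 60 min. At 15 min it was at -0.09 ± 0.09, and the drop followed between 15 and 60 min in all 3 replicates (-1.85 ± 0.10, adjusted p = 1.41e-05).

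The step from 15 to 60 min was tested directly, with the reservation that the 60 min libraries chose the genes. By edgeR 140 of 148 members (94.6%) were lower at 60 than at 15 min, against 9.45% of all genes tested, and 145 were lower in all 3 replicates, against 26.9%. The median log2 fold change of this step was -1.16 for the members and -0.01 for all genes tested. The groups did not overlap for 75 members (50.7%), against 5.91% of all genes tested. All 11 receptor members were among the 140. The 8 members not called had log2 fold changes of -0.73 to -0.34 in this step, with adjusted p from 0.0525 to 0.508, after log2 fold changes of -1.32 to -0.67 at 15 min. Without the replicate block 4 members passed the threshold, against 0.0132% of all genes tested, and without replicate 1 it was 92, against 1.67%.

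At 60 min all 148 members were called lower than Control, where 10.6% of all genes tested were, in the comparison that chose them. Without the replicate block 32 of them were called, against 0.11% of all genes tested, and without replicate 1 it was 135, against 3.02%. Their fitted log2 fold changes ran from -3.03 to -1.0, which is 2.00 to 8.18 times lower with a median of 3.00, and 26 members fell by more than 2 on the log2 scale. The 60 min libraries lay below Control without overlap for 108 members (73%), against 6.16% of all genes tested. The members' mean CPM had a median of 4.77 in Control, 4.10 at 15 min and 1.69 at 60 min. Their Control levels ran from 0.298 to 145 CPM, with the median near the 5.38 CPM of all genes with enough counts. Falls of this size in every replicate were rarer than rises, since 150 genes of 41649 met the limit downward and 941 met the same limit upward, or 444 and 596 on total counts.

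BnaA08g15560D, the member with the lowest limit value, had 1.52, 1.19 and 1.88 CPM in Control, 1.41, 1.17 and 1.14 CPM at 15 min and 0.201, 0.210 and 0.149 CPM at 60 min. Control and 15 min libraries overlapped, and the 60 min libraries held 20, 21 and 17 counts. The fall was 8.18-fold in the fit, of which the step after 15 min was -2.73 ± 0.24 on the log2 scale (adjusted p = 6.43e-05). BnaA02g01220D, next in order and the member with the highest mean level in Control, had 158, 66.7 and 209 CPM in Control, 90.1, 45.6 and 84.1 CPM at 15 min and 21.2, 13.6 and 33.6 CPM at 60 min. It fell in each replicate at each step and was 6.10 times lower than Control at 60 min.

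The other 8 of the 10 members at the bottom of the order were BnaA08g19490D, BnaA01g09020D, BnaA06g37320D, BnaA07g11010D, BnaA01g20960D, BnaA02g29770D, BnaC02g37820D and BnaC05g20560D. No source used here names them. Of the 10, 3 were called lower at 15 min, where 0.0359% of all genes tested were, and 5 had a 15 min log2 fold change below -0.8. BnaA02g29770D and BnaC02g37820D were lowest in replicate 3, with 14.7, 6.04 and 2.71 CPM and 24.5, 16.1 and 1.26 CPM in Control, the reverse of the receptor genes. BnaC05g20560D was highest there, with 25.1, 8.27 and 100 CPM. The 10 thus hold genes with opposite orders of the preparations in Control.

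The members with high CPM in Control differed in their course. BnaC01g11410D had 115, 105 and 161 CPM in Control, 98.4, 116 and 126 CPM at 15 min and 43.1, 52.1 and 72.2 CPM at 60 min, so 15 min and Control overlapped and 60 min stood apart. Its log2 fold change was -0.14 ± 0.10 at 15 min (adjusted p = 0.989) and -1.05 ± 0.10 from 15 to 60 min (adjusted p = 0.000113). BnaA07g35640D had 84.4, 31.1 and 163 CPM in Control, 41.9, 23.2 and 47.5 CPM at 15 min and 24.8, 12.1 and 12.1 CPM at 60 min, with 50.5% of its log2 fall present at 15 min. BnaA03g53530D had 62.6, 26.9 and 186 CPM in Control and 18.5, 10.8 and 84.3 CPM at 60 min, where its replicate 3 stood above Control replicates 1 and 2. Of the 5 members with the highest Control level, these and BnaA02g01220D and BnaC06g37490D, 1 was called lower at 15 min.

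The preparations differed. The median fall within a replicate at 60 min was -1.31, -1.30 and -1.81 in replicates 1, 2 and 3, and at 15 min it was -0.26, -0.23 and -0.66. The largest of the 3 falls at 60 min was that of replicate 3 for 102 members, of replicate 1 for 24 and of replicate 2 for 22. The smallest, which the rule used, was that of replicate 2 for 75 members and of replicate 3 for 21. Control replicate 3 also had the highest Control level for 95 members (64.2%), against 33.3% of all genes with enough counts, and for all 11 receptor members. Over the 148 members the summed level was 2188, 1527 and 3540 CPM in Control, 1696, 1341 and 1957 CPM at 15 min and 793.5, 634.8 and 902.5 CPM at 60 min. In these sums all 3 preparations fell at each step and were closer together at 60 min than in Control. The rule used both of these groups, so this is a description. The standard deviation of log2 CPM over Control libraries had a median of 0.671 for the members and 0.335 for all genes with enough counts. Over the 60 min libraries the medians were 0.579 and 0.310, the latter with 0.1 CPM added to each level. For 93 members the standard deviation was smaller at 60 min than in Control, and the share over all genes was not taken.

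Whether genes chosen this way also fall in a preparation that did not choose them was asked by applying the rule to 2 replicate numbers and reading the third, a check added after the data had been seen. The 149 genes chosen without replicate 1 had a median difference of -1.04 in replicate 1. The 148 chosen without replicate 2 had -1.12 in replicate 2, and the 148 chosen without replicate 3 had -1.55 in replicate 3. In the replicates that chose them the medians of these sets were -1.59, -1.73 and -1.33. For comparison, the 42948, 42576 and 42198 genes with at least 30 counts in the Controls of the replicates used had medians of -0.01, 0.00 and -0.01. In the replicate left out 144, 136 and 147 of the chosen genes were lower at 60 min (96.6%, 91.9% and 99.3%), against 50.9%, 49.9% and 50.9% of those comparison genes. At 15 min 96, 107 and 136 of the chosen genes were lower in that replicate (64.4%, 72.3% and 91.9%), against 50%, 49.1% and 47.3%, with medians of -0.11, -0.14 and -0.56. The sets held 83, 80 and 110 of the 148 members, so which genes were taken depended on the replicates used.

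**Figure D4:**
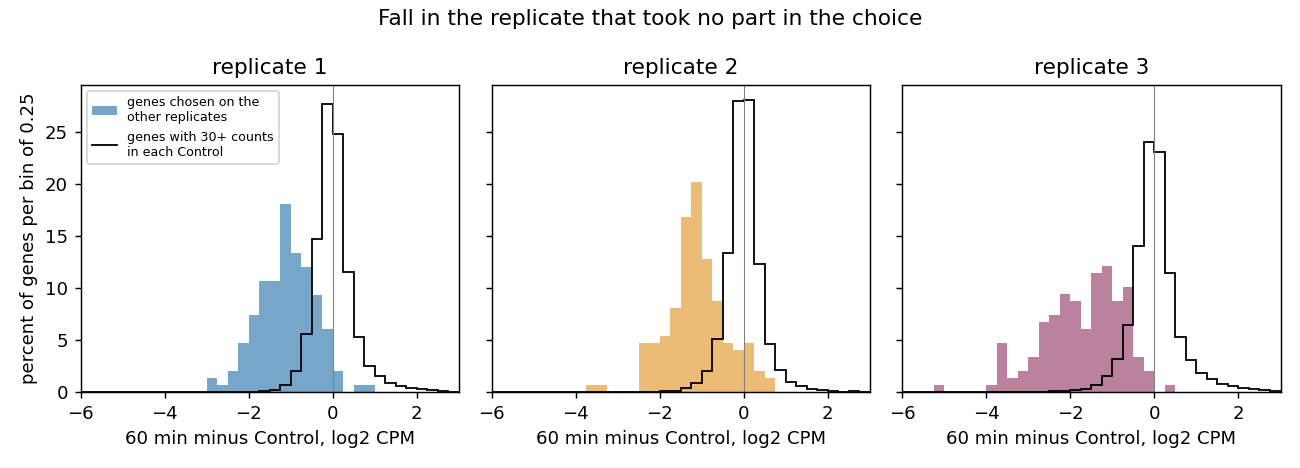
Distribution of the difference in log2 CPM between 60 min and Control in the replicate whose differences took no part in the choice, as percent of genes per bin. Filled bars are the genes chosen on the other replicates, with medians of -1.04, -1.12 and -1.55, and the outline shows all genes with 30 or more counts in each Control, centred near 0.

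By position, 80 members (54.1%) lie in subgenome A, derived from B. rapa, and 68 (45.9%) in subgenome C, derived from B. oleracea, against 48.1% and 51.6% of the genes with enough counts. A further description is by chromosome, as the gene IDs give it. Chromosome A02 held 13 members of 1450 genes with enough counts, and A10 held 1 of 1520, the highest and lowest rates of the placed chromosomes. Over the whole genome it was 148 of 41649. On unplaced scaffolds lie 14 members (9.46%), 7 of 1477 genes with enough counts in subgenome A, 7 of 2472 in C and 0 of 101 assigned to neither.

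Members stand in directly neighbouring places of the annotation in 5 pairs. BnaA01g01140D and its neighbour BnaA01g01150D were both called lower at 15 min, at -1.03 and -1.11 on the log2 scale, and were at -2.37 and -2.0 at 60 min. BnaA07g28450D and BnaA07g28460D were near their Control level at 15 min, at -0.13 and -0.07, and at -1.83 and -1.49 at 60 min. In BnaA02g29770D and BnaA02g29780D the 60 min values were -2.06 and -1.08. The remaining pairs were BnaA03g53520D with BnaA03g53530D, at -1.62 and -1.40 at 60 min, and BnaC07g43490D with BnaC07g43500D, at -1.31 and -1.30. Reads that fit several places were discarded by the authors, so values of near-identical neighbours are uncertain.

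At the limit of the rule the smallest falls of the last members taken were -0.97 in BnaA09g38160D, BnaA09g34080D and BnaCnng75160D. The next genes, BnaC01g36680D, BnaC08g47020D and BnaC04g56560D, were also at -0.97 after rounding and were left out. BnaA09g34080D had 20.2, 17.7 and 22.5 CPM in Control, 20.3, 17.0 and 16.9 CPM at 15 min and 10.3, 8.68 and 11.3 CPM at 60 min, an even fall of 2.00-fold. BnaC04g56560D, just outside, had 166, 143 and 189 CPM in Control and 84.9, 65.1 and 42.1 CPM at 60 min. In both genes the 60 min and Control groups did not overlap. Of the members, 109 had at least 100 counts in each Control library, and 14 had fewer than 10 counts in a 60 min library, so the size of the fall is loosely fixed in the latter.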

How the data were processed

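The study's authors aligned single-end RNA-seq reads to the Darmor genome with TopHat2 (named in the submitters' processing notes), counted reads per gene with HTSeq, discarded reads that map to several places, and deposited the counts without normalization for 101040 genes in 9 samples. The annotation release and the strand setting of the counting are not given in the sources used here, so values of genes that overlap or have near-identical copies are uncertain. No column lacked a sample (0).

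From the counts, TMM factors, CPM, log2 fold changes and standard errors (absolute log2 fold change over the square root of F) come from edgeR 4.0.16 (R 4.3.3). Genes passing filterByExpr by treatment (52881) were fitted in 1 model of all 9 samples with terms for treatment and, as a block, the replicate number, as in the study's methods. Quasi-likelihood tests were adjusted by Benjamini-Hochberg over all genes tested, with a threshold of 0.05. Differences within replicates used log2 CPM with a prior count of 2. CPM is not corrected for gene length, so levels are not compared between genes as transcript numbers. Replicates are pools. With the block, differences in level between pools are removed, and p-values measure how the treatment differences vary from pool to pool.

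The replicate number pairs the samples because the study describes each biological sample as including every treatment. How the preparations in a pool were divided among the treatments is not given in the sources used here. Deviations from the group means correlated from 0.715 to 0.851 between samples of the same number (9 pairs). Between different numbers they ran from -0.588 to -0.156 (18 pairs). Subtracting the group mean pushes the latter below 0, so only the values for the same number bear on the pairing. No libraries of a group were near copies (chi-square per degree of freedom at least 137).

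Members and gene lists were chosen with earlier results of these data known. Named genes are the 10 at the bottom of the order, 3 on either side of the limit, the 5 lowest at 15 min among those called, the 5 with the highest Control level, members with a name in the study's tables and genes of the listed families. The remaining genes called at 15 min and the neighbouring pairs were named after their values were seen. Of the member IDs 8 were found as symbols in the RefSeq gene table, which gave no further name, so lists by product text were not made and no sequences are shown. Alternatives were DESeq2 1.42.0, RLE factors, total count alone, no filter, a mean of at least 50 counts, no block, a fit of the compared groups alone, and dropping every replicate number in turn. For the choice of members they were also prior counts of 0.5 and 10, the lowest mean in place of the lowest maximum, and 100 counts in each Control.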

Additional observations from a re-analysis of the deposited data

Results flagged for a closer look

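Of the 148 members, 140 were lower at 60 min than at 15 min by a direct test between the time points (edgeR, adjusted over all genes tested). The 60 min libraries of that test also chose the genes for their low values, so the outcome was in large part fixed by the choice. The median log2 fold change against Control was -0.38 at 15 min and -1.58 at 60 min.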

How the results depend on the processing

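The replicate block carried most calls, for the members and over all genes. Without it 0, 0.0132% and 0.11% of all genes tested were called lower at 15 min, from 15 to 60 min and at 60 min. Without it 0 members were called lower at 15 min (9 with it), 4 were lower at 60 than at 15 min (140 with it) and 4 of 18 receptor genes were lower at 60 min (17 with it), where 15 members, 94 members and 15 receptor genes passed at an unadjusted p under 0.05. The number of members called at 15 min was 18 with DESeq2, 31 with no filter on low counts and 48 with only the groups compared. Over all genes tested 0.12%, 0.117% and 0.355% were called lower in these settings, against 0.0359% in the main fit. When a replicate was left out the number ran from 0 to 10, and the share over all genes tested from 0 to 0.0393%. Of the 9 called, 0, 4 and 4 were called again without replicates 1, 2 and 3. Members lower at 60 than at 15 min numbered 92 to 133 when a replicate was left out, the fewest without replicate 1. Under the other alternatives with the block they numbered 131 to 145. The shares of all genes tested called lower were 1.67% to 8.23% and 6.57% to 36.1%. Receptor genes lower at 60 min, which the study had listed for their change in these samples, stayed at 17 in every alternative with the block. The median log2 fold change at 60 min was -1.88 with total count alone, and -1.69 to -1.33 when a replicate was left out. At 15 min it was -0.48 to -0.25 when a replicate was left out. Of the 148 members, 98 were chosen again by the lowest mean, 83, 80 and 110 without replicates 1, 2 and 3, and 109 with 100 counts in each Control. The causes of these shifts were not tested, apart from fewer samples and genes by construction. For single named members no direction reversed. Their values were counted once per gene and alternative, so they are not numbers of genes. At 15 min 246 values stayed as in the main fit, 31 became calls and 23 lost the call. Between 15 and 60 min 251 stayed, 3 became calls and 46 lost the call, 27 of these 46 without the replicate block. With 3 pools a group, log2 changes that are small against standard errors with a median of 0.17 at 15 min were not detectable at this depth.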
